A study of Mus musculus with 9 samples.

Results

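Mmp3 encodes stromelysin-1, a secreted zinc-dependent protease of the extracellular matrix, and it was followed here as 1 of the 32286 features of a single-cell RNA table from mouse mammary tumours. It was taken by name, as the row with the symbol Mmp3 (ENSMUSG00000043613). Earlier results of these data were known at that point, so the tests below are not those of a gene picked blind. The protein is released as an inactive proenzyme, is switched on outside the cell by plasmin and other proteases, and is held in check by the tissue inhibitors of metalloproteinases. Once active it cleaves fibronectin, laminins, proteoglycans and other matrix proteins and can activate other matrix metalloproteinase zymogens. In the mammary gland it is best known as a product of stromal fibroblasts, and its gene responds to interleukin-1, growth factors and AP-1 transcription factors in cultured cells.

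Tumours were raised from the mouse mammary tumour line 168FARN in the mammary fat pad; the hosts were female BALB/c mice with an intact immune system, the strain the line comes from. Cells of all 3 groups carried an H2B-mCherry reporter, whose transcript is listed as H2BMc. The groups were WT, Kmt2c knockout (Kmt2c KO) and Kmt2d knockout (Kmt2d KO), with 3 tumours in each, and KMT2C and KMT2D are methyltransferases that act on lysine 4 of histone H3. Each knockout was 1 sorted pool of cells transiently transfected with Cas9 and a pool of guide RNAs, so the 3 tumours of a genotype replicate the mouse and not the making of the knockout. Whole tumour suspensions were sequenced with a droplet kit that reads the 5' ends of transcripts and counts them with unique molecular identifiers (UMIs).

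The table held 89147 barcodes and 585680611 UMIs, from 21529691 to 125617312 per library. With the limits on genes and mitochondrial UMIs given by the study, 58645 cells were kept, from 939 to 14525 per library. WT libraries 1 to 3 kept 1185, 2380 and 939 cells of 3109, 3835 and 3682 barcodes. The knockout libraries kept 5997 to 14525 cells of 9214 to 22929 barcodes. Library size thus went with genotype, and its part in the results was not tested. Tumour cells were taken as the 16707 kept cells with at least 1 H2BMc UMI, with 448, 925 and 361 in the WT libraries, 3434, 2599 and 2244 in the Kmt2c KO libraries and 1851, 2028 and 2817 in the Kmt2d KO libraries. Their median depth was 19424.5, 13729 and 24081 UMIs in WT libraries 1 to 3 and 8661 to 14789 UMIs in the knockout libraries. Of the 5 tumour markers only H2BMc and Krt8 (79.9% of these cells) were seen, while the epithelial markers Krt18, Krt19 and Epcam were near 0 (31, 7 and 1 UMIs in all). Krt8 was seen in 92.6% to 95.3% of these cells in WT, 74.0% to 75.9% in Kmt2c KO and 78.5% to 85.0% in Kmt2d KO.

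Several limits apply to all that follows. Library numbers are those of the deposited table within each genotype and are not the replicate numbers of the labels. The table marks each library only with a letter, C, D or X; C was taken for Kmt2c KO and D for Kmt2d KO, following how the study named its comparisons, and taking X for WT is an inference that no label states. The knockouts could not be checked from the transcripts of the targeted genes, since small edits need not lower an mRNA. Kmt2c was at 43.9, 42.0 and 57.6 counts per 1000000 UMIs (CPM) in Kmt2c KO, 51.8, 51.1 and 49.0 CPM in Kmt2d KO and 48.1 to 49.1 CPM in WT. Kmt2d was at 25.9, 31.9 and 24.3 CPM in Kmt2d KO, 26.3, 21.8 and 31.1 CPM in Kmt2c KO and 14.9 to 21.4 CPM in WT. Kmt2d KO library 2 stood apart from the other 2 libraries of its genotype, with a summed level of 21 interferon-response genes of 8169 CPM against 3475 and 3626 CPM, near the 8952 to 11713 CPM of Kmt2c KO. Any 2 libraries shared 2 to 206 barcode sequences, at most 2.28% of the smaller one, and no doublets were removed.

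The gene lies on chromosome 9, at 7445822 to 7455975 in GRCm38 (mm10), inside a cluster of 10 matrix metalloproteinase genes. The promoters of Mmp3 and of its cluster neighbours Mmp10 and Mmp13 are shown because these had the most UMIs of the cluster genes measured in H2BMc-positive cells, and because the kit counts transcripts at their 5' ends. Each sequence is RefSeq's, runs 5' to 3' on the plus strand from 250 bases before the annotated start to 50 bases from it, and has in capitals the letters of an AP-1 motif (TGANTCA), a pair of facing ETS cores (GGAA, then any 4 bases, then TTCC) or a TATA box (TATAAAA).
Mmp3, chr9:7445572-7445871: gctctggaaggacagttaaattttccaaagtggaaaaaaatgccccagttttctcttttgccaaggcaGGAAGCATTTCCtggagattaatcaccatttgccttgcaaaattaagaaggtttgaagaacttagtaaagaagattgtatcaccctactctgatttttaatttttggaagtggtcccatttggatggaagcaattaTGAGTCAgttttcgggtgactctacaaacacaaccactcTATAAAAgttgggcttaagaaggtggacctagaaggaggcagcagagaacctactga
Mmp10, chr9:7502092-7502391: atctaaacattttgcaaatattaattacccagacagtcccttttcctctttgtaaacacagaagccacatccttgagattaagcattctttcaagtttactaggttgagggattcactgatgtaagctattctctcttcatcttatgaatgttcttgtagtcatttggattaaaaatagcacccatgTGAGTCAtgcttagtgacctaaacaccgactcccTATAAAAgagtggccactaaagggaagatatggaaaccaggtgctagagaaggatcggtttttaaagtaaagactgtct
Mmp13, chr9:7272264-7272563: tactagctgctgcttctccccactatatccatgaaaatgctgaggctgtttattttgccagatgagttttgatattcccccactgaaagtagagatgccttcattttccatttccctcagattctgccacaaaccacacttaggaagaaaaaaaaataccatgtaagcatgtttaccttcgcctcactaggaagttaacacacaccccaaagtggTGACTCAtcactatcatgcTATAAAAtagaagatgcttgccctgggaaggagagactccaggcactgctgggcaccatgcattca
Letters of the AP-1 motif lay from 46 to 40 bases before the start of Mmp3, from 63 to 57 bases before that of Mmp10 and from 35 to 29 bases before that of Mmp13. On either strand the AP-1 motif was found in 7.81% of the 32851 promoters of this length, the TATA box in 5.48% and the ETS pair in 0.788%. The AP-1 letters were in 7 of the 10 cluster promoters, the TATA box in 5, and the ETS pair in that of Mmp3 alone, from 182 to 171 bases before its start. The motifs do not overlap each other here, and such matches describe letters and not bound sites.

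Mmp3 was higher in tumour cells of both knockouts than in WT tumour cells. Summed over H2BMc-positive cells, it stood at 23.9, 38.2 and 30.7 CPM in WT libraries 1 to 3, at 166, 324 and 257 CPM in Kmt2c KO and at 133, 124 and 129 CPM in Kmt2d KO. No knockout library overlapped WT, and the lowest Kmt2c KO library lay above the highest Kmt2d KO library. Group means were 30.9 ± 7.16, 249 ± 79.2 and 128 ± 4.5 CPM (SD, n = 3 each), so that Kmt2c KO was 8.04 times and Kmt2d KO 4.15 times the WT mean.

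In edgeR's quasi-likelihood test over 14089 genes, Mmp3 rose in Kmt2c KO by a log2 fold change of 3.0 ± 0.25 (SE, adjusted p = 1.48e-04), and 18.7% of all genes tested were called in that comparison, 9.57% higher and 9.17% lower. In Kmt2d KO it rose by 2.01 ± 0.24 (edgeR, adjusted p = 0.00252), where 2.27% of genes were called, 1.04% higher and 1.23% lower. Of the tumour markers, Krt8 was lower in Kmt2c KO, with a log2 fold change of -0.944 ± 0.177 (edgeR, adjusted p = 0.00648). H2BMc was the marker that selected the cells. Each cell adds at least 1 H2BMc UMI whatever its depth, and Kmt2c KO cells were shallower than WT cells, so its change is not read. The part of both markers in the Mmp3 result was not tested. By size of log2 fold change Mmp3 ranked 119th and 118th from the top of the genes tested. Both calls held without any 1 library, with Kmt2d KO at 2.05 (edgeR, adjusted p = 4.68e-04) without the library that stood apart. The level in Kmt2d KO was below that in Kmt2c KO by a log2 of 0.986 ± 0.225, a difference that was not called (edgeR, adjusted p = 0.0859, with 0.0781% of genes called, 0.0497% higher and 0.0284% lower). It was called without Kmt2d KO library 2 (adjusted p = 0.0142) and without Kmt2c KO library 1 (adjusted p = 0.0365, both edgeR).

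**Figure D1:**
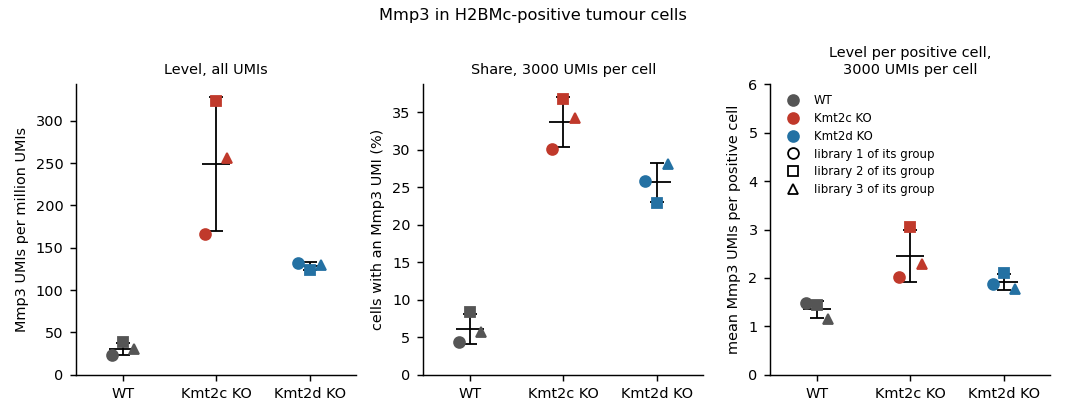
Mmp3 in H2BMc-positive tumour cells by genotype: CPM over all UMIs (left), percentage of cells with an Mmp3 UMI (middle) and mean Mmp3 UMIs per positive cell (right), the last 2 after every cell was thinned to 3000 UMIs. Points are libraries, bars are the mean and SD of 3; all 6 knockout libraries lie above the 3 WT libraries in each panel, and in the left panel the Kmt2d KO libraries sit between 124 and 133 CPM while Kmt2c KO spreads from 166 to 324 CPM.

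A summed level joins the share of cells with the transcript and the amount per such cell, so both were measured after thinning each cell to 3000 UMIs, which 15787 of the 16707 cells had. An Mmp3 UMI was then seen in 4.30%, 8.31% and 5.63% of WT cells, in 30.1%, 36.7% and 34.2% of Kmt2c KO cells and in 25.8%, 22.9% and 28.1% of Kmt2d KO cells. The 3 genotypes did not overlap, and the order was WT, Kmt2d KO, Kmt2c KO. Means were 6.08 ± 2.04%, 25.6 ± 2.63% and 33.7 ± 3.35% (SD, n = 3 each) in that order, and the exact permutation test over all assignments of the 9 tumours to genotypes gave p = 0.00357, the smallest it can give (0.00714 after adjustment over 2 measures). No pair of groups of 3 can reach a two-sided exact permutation p below 0.1, and each pair gave 0.1 (0.12 adjusted over 6 pair tests). With all UMIs counted the shares were 20.1% to 26.7% in WT, 49.5% to 57.8% in Kmt2c KO and 41.4% to 56.3% in Kmt2d KO, so at these unequal depths the knockouts overlapped each other.

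Among cells with the transcript, knockout cells also held more of it. The mean at 3000 UMIs was 1.47, 1.43 and 1.15 Mmp3 UMIs per positive cell in WT, 2.03, 3.05 and 2.29 in Kmt2c KO and 1.87, 2.11 and 1.78 in Kmt2d KO. Both knockouts lay above WT in every library, while the knockouts overlapped each other. Means were 1.35 ± 0.18, 2.46 ± 0.53 and 1.92 ± 0.17 (SD, n = 3 each; exact permutation test over 3 genotypes, p = 0.0107, also after adjustment). Whether the share or the amount differed more cannot be read from these values, since an amount per positive cell cannot fall below 1 UMI and both ratios move with depth. Kmt2c KO was 5.54 times WT in share and 1.82 times in amount at 3000 UMIs, 3.68 and 2.25 times at 6000 UMIs, and 2.23 and 2.0 times with all UMIs counted.

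Mmp3 was unevenly spread over tumour cells. In the knockout libraries, the 10% of cells with most Mmp3 held 61.5% to 73.4% of its thinned UMIs, and the ratio of variance to mean over cells was 2.80 to 8.28, where random sampling of equal cells gives about 1. Cells with 10 or more Mmp3 UMIs among 3000 made up 0.556%, 2.01% and 0.865% of Kmt2c KO cells and 0.389%, 0.312% and 0.0822% of Kmt2d KO cells. No WT cell reached 10, and the highest WT cell held 6. Kmt2c KO library 2, which had the highest level, also had the longest tail, with a cell of 52 Mmp3 UMIs.

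**Figure D2:**
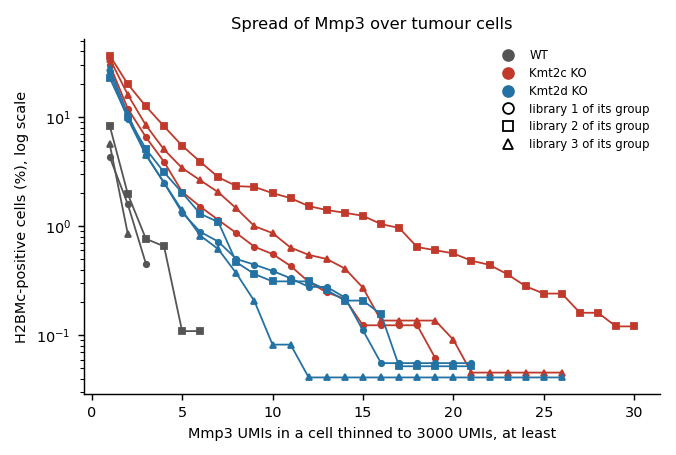
Percentage of H2BMc-positive cells (log scale) that held at least a given number of Mmp3 UMIs after thinning to 3000 UMIs, 1 line per library. WT lines start between 4.30% and 8.31% and end by 6 UMIs, Kmt2d KO lines start between 22.9% and 28.1%, and Kmt2c KO library 2 reaches 2.01% of cells at 10 UMIs.

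The neighbours of Mmp3 in the metalloproteinase cluster were sparse in tumour cells. Of 9 other cluster genes 8 were in the feature table (Mmp1a was not), 2 of these had no UMI in H2BMc-positive cells (Mmp7 and Mmp20), and 3 passed the filter on low counts. Mmp10, stromelysin-2, was at 4.5, 7.70 and 5.21 CPM in WT, 16.3, 13.5 and 23.6 CPM in Kmt2c KO and 8.22, 11.3 and 6.69 CPM in Kmt2d KO. It rose in Kmt2c KO without overlap (log2 fold change 1.58 ± 0.26, edgeR, adjusted p = 0.00369) and was not called in Kmt2d KO (0.524 ± 0.266, adjusted p = 0.348), where it overlapped WT. Mmp13, collagenase-3, gave 0, 2 and 0 UMIs in the WT libraries, 107, 325 and 263 in Kmt2c KO and 45, 55 and 20 in Kmt2d KO. All knockout libraries were above WT. Mmp13 and Mmp12 passed the filter on low counts only through the knockout libraries in which they were high, so no call of them is used, and no fold change of Mmp13 is given. Mmp12, macrophage elastase, had 4 UMIs in WT and 112 of its 181 UMIs in Kmt2c KO library 3. DESeq2, run as an alternative, also called Mmp10 higher in Kmt2c KO, where it called 2874 of 23482 genes with a UMI, and lower in Kmt2d KO than in Kmt2c KO, where it called 565.

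The inhibitors of MMP3 did not pass the edgeR test in any comparison. Of 6 listed, 4 were tested and 0 were called in either direction. Of all genes tested 18.7% were called in Kmt2c KO, 2.27% in Kmt2d KO and 0.0781% between the knockouts, so 0 of only 4 genes does not set the inhibitors apart. Their median log2 fold change was 0.120 in Kmt2c KO and 0.0969 in Kmt2d KO against -0.00395 and 0.00503 over all genes tested. Timp1, an inhibitor that binds active MMP3, was at 183 to 207 CPM in WT, 193 to 221 CPM in Kmt2c KO and 148 to 175 CPM in Kmt2d KO (log2 fold changes 0.104 ± 0.099 and -0.257 ± 0.099). At an unadjusted p under 0.05 edgeR had 0 of the 4 inhibitors in Kmt2c KO, 2 in Kmt2d KO and 1 between the knockouts (33.7%, 17.1% and 17.8% of all genes tested), and DESeq2 called 0, 0 and 1, the last being Timp1, lower in Kmt2d KO than in Kmt2c KO. In the same order DESeq2 called 2874, 682 and 565 of 23482 genes. A2m, which traps proteases, had no UMI, and Timp4 had 1.

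Of 8 genes listed for the activation of the proenzyme, 3 were tested and 1 was called in Kmt2c KO, where 18.7% of all genes were called. Plau, the urokinase that makes plasmin, was at 3.70, 5.0 and 5.01 CPM in WT, 16.5, 10.8 and 11 CPM in Kmt2c KO and 8.22, 10.4 and 5.42 CPM in Kmt2d KO. All 6 knockout libraries were above WT, and Plau rose in Kmt2c KO (log2 fold change 1.47 ± 0.27, edgeR, adjusted p = 0.00595) but was not called in Kmt2d KO (0.760 ± 0.274, adjusted p = 0.195). Plg, which encodes plasminogen, had 4 UMIs in all. Of the 6 zymogens listed as activated by MMP3, Mmp9 and Mmp13 were tested, and Mmp9, gelatinase B, was called in neither knockout (log2 fold changes -0.350 ± 0.178 and 0.219 ± 0.177).

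Some known MMP3 substrates were called in each knockout, and most were not. Of 17 listed, 16 were tested: 5 rose, 1 fell and 10 were not called in Kmt2c KO (18.7% of all genes called), and 3 rose and 13 were not called in Kmt2d KO (2.27% of all genes called). Eln, elastin, was at 66.6, 73.8 and 69.0 CPM in WT, 227, 236 and 278 CPM in Kmt2c KO and 195, 159 and 211 CPM in Kmt2d KO. These 3 ranges did not overlap, and Eln rose by 1.82 ± 0.12 and 1.40 ± 0.12 on the log2 scale (edgeR, adjusted p = 7.3e-05 and 4.25e-04). Lamb3, a laminin chain of basement membranes, is among these counts but had only 8 UMIs in all of WT, so that it passed the filter on low counts through the knockouts and its call is not read. Hspg2, the proteoglycan perlecan, rose in both by 0.460 ± 0.090 and 0.479 ± 0.090. In Kmt2c KO the test also called Tnc, tenascin C (1.94 ± 0.28), and Fn1, fibronectin (0.664 ± 0.135), higher and Sparc, osteonectin (-0.461 ± 0.106), lower. The difference between the knockouts was not called for these 3 (edgeR, adjusted p = 0.119, 0.312 and 0.692). At an unadjusted p under 0.05 there were 7 of 16 substrates in Kmt2c KO and 9 of 16 in Kmt2d KO, beside 33.7% and 17.1% of all genes tested. DESeq2 called 6 higher and 1 lower in each knockout, Lamb3 among them, beside 2874 of 23482 genes in Kmt2c KO and 682 in Kmt2d KO. Beyond the edgeR calls these were Col4a1, a basement membrane collagen chain, in Kmt2c KO, and Col4a1, Col4a2, Tnc and, lower, Sparc in Kmt2d KO. DESeq2 also called Tnc and Eln lower in Kmt2d KO than in Kmt2c KO, where it called 565 genes.

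Of the regulators known from other cells to act on Mmp3, 3 of 12 transcription factors and 4 of 13 signal genes were called higher in Kmt2c KO, where 9.57% of all genes tested were called higher and 18.7% in either direction. Of 13 transcription factors listed, 12 were tested, and Cebpb (1.53 ± 0.21), Junb (0.952 ± 0.284) and Fosl1 (0.631 ± 0.189) rose. Cebpb, a basic leucine zipper factor of inflammatory responses, was at 224, 285 and 254 CPM in WT, 541, 890 and 778 CPM in Kmt2c KO and 413, 516 and 321 CPM in Kmt2d KO, so that all knockout libraries lay above WT. Of 16 genes for inducing signals and their receptors, 13 were tested, and Osmr, the oncostatin M receptor (1.19 ± 0.26), Lif (1.85 ± 0.54) and Fgf2 (0.825 ± 0.175) rose. Il1b, with 1 UMI in WT and 15, 15 and 16 UMIs in the Kmt2c KO libraries, is among the 4 called but passed the filter on low counts only through the knockouts, so its call is not read. In Kmt2d KO edgeR called 0 genes of either list, with 1 of 12 transcription factors and 3 of 13 signal genes at an unadjusted p under 0.05 (17.1% of all genes tested), and DESeq2 called Cebpb and Il1r1, an interleukin-1 receptor, higher. Between the knockouts edgeR called 0 of either list, with 6 and 6 at an unadjusted p under 0.05 (17.8% of all genes tested), and DESeq2 called Fosl1, Cebpb and Osmr lower in Kmt2d KO. Over all genes DESeq2 called 682 of 23482 in Kmt2d KO against WT and 565 between the knockouts.

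Of the 7 lists used below to score cells, all but the G2M list had members called by edgeR in Kmt2c KO, where 9.57% of all genes tested were called higher and 9.17% lower. In Kmt2c KO, 21 of 21 interferon-response genes, 16 of 18 hypoxia genes, 6 of 11 NF-kB genes and 3 of 11 AP-1 and immediate early genes rose, and 4 of 17 matrix genes rose and 4 fell, among them Col3a1 (-3.56 ± 0.52) and Col5a2 (-2.70 ± 0.35), both fibrillar collagen chains. For the cell cycle, 2 of 10 S phase genes (Hells and Rrm1) fell and 0 of 10 G2M genes were called. In Kmt2d KO, where 1.04% of all genes tested were called higher and 1.23% lower, 3 of 21 interferon genes rose, 1 of 17 matrix genes fell (Col5a2) and 0 of the others were called by edgeR. At an unadjusted p under 0.05 there were 18 of 21 interferon, 9 of 17 matrix, 3 of 18 hypoxia and 2 of 11 NF-kB genes and 0 of the AP-1, S phase and G2M genes, beside 17.1% of all genes tested. DESeq2 called 6 interferon genes higher in Kmt2d KO, 1 matrix gene higher and 2 lower, 1 hypoxia gene (Eno1) higher and 2 NF-kB genes (Birc3 and Lcn2) higher. Over all genes it called 682 of 23482 in that comparison. For G2M genes in Kmt2c KO, 0 had an unadjusted p under 0.05 and DESeq2 called 0. Among Kmt2d KO libraries, the one with 8169 CPM of interferon genes had 124 CPM of Mmp3, and those with 3475 and 3626 CPM had 133 and 129 CPM. Among Kmt2c KO libraries, the one with 8952 CPM had 166 CPM of Mmp3, and those with 10338 and 11713 CPM had 324 and 257 CPM, so the lowest of both was the same library there. The relation of the 2 levels over libraries was not tested.

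Within each tumour, Mmp3 went with matrix genes. Cells were ranked by their summed thinned UMIs of a list, never counting Mmp3, and Mmp3 was compared between the top and bottom tertile of cells. By matrix score, the top tertile held more Mmp3 in 9 of 9 libraries, with log2 ratios of 2.48, 1.74 and 0.933 in WT, 3.16, 3.43 and 2.22 in Kmt2c KO and 2.11, 3.43 and 2.83 in Kmt2d KO. In Kmt2c KO library 1, for example, 47.2% of cells in the top tertile had an Mmp3 UMI against 11.3% in the lowest. The mean log2 ratio was 2.48 ± 0.83 (SD, n = 9 libraries; exact sign-flip permutation test, p = 0.00391, the smallest possible, adjusted p = 0.00684 over 7 lists). WT ratios rest on few counts: a tertile of a WT library held 3 to 56 Mmp3 UMIs over all lists.

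Mmp3 went against cell cycle genes. It was lower in the top tertile by S phase score in 9 of 9 libraries (mean log2 ratio -1.23 ± 0.37) and in the top tertile by G2M score in 9 of 9 (-1.27 ± 0.27; both exact sign-flip permutation tests, adjusted p = 0.00684). In Kmt2d KO library 2, which had the strongest G2M ratio (log2 ratio -1.78), 29.5% of cells in the bottom G2M tertile had an Mmp3 UMI and 15.3% in the top one. Cells of equal score were ordered at random. The median S phase score was 1 UMI in all 9 libraries, and the median G2M score was 0 in all but Kmt2d KO library 2, where it was 1. With a median of 0, the bottom G2M tertile was a random draw from cells with no G2M UMI. The AP-1 and immediate early score had Mmp3 higher in its top tertile in 9 of 9 libraries, by a mean log2 ratio of 0.633 ± 0.306 (SD, n = 9, exact sign-flip permutation test, adjusted p = 0.00684).

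The other lists gave smaller or mixed values. By hypoxia score the summed Mmp3 UMIs were higher in the top tertile in 8 of 9 libraries (mean log2 ratio 0.558 ± 0.502, exact sign-flip permutation test, adjusted p = 0.0109), with Kmt2d KO library 3 the exception. The share of cells with an Mmp3 UMI did not always follow. It was lower in the top hypoxia tertile of Kmt2c KO library 3 (34.0% against 35.0%) and Kmt2d KO libraries 1 (24.4% against 25.7%) and 3 (25.4% against 30.2%). In all other libraries that share was higher in the top tertile. By interferon score summed Mmp3 was higher in all 6 knockout libraries (0.160 to 1.69) and in WT library 2, and lower in WT libraries 1 and 3, where the tertiles held 4 to 16 Mmp3 UMIs (mean of 9 libraries 0.352 ± 1.07, exact sign-flip permutation test, adjusted p = 0.336). The share with an Mmp3 UMI in these 6 knockout libraries was 14.2% to 26.1% in the bottom tertile and 31.1% to 47.1% in the top one. In WT the share rose only in library 2. The NF-kB score gave 0.465 ± 0.684 with 7 of 9 libraries higher (exact permutation, adjusted p = 0.105). A call for the interferon score depended on the setting: it passed without WT library 1 (0.630, adjusted p = 0.0456), at 6000 UMIs per cell (0.862) and in Krt8-positive cells (0.748), all by the exact permutation test, and the ratio turned to -0.0583 when cells were ranked by the number of list genes seen. The NF-kB call passed without WT library 3 (0.638, exact permutation, adjusted p = 0.0273). None of the 7 ratios differed between genotypes in an exact permutation test (adjusted p = 0.629 for each list), in which libraries with few counts weigh as much as others.

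**Figure D3:**
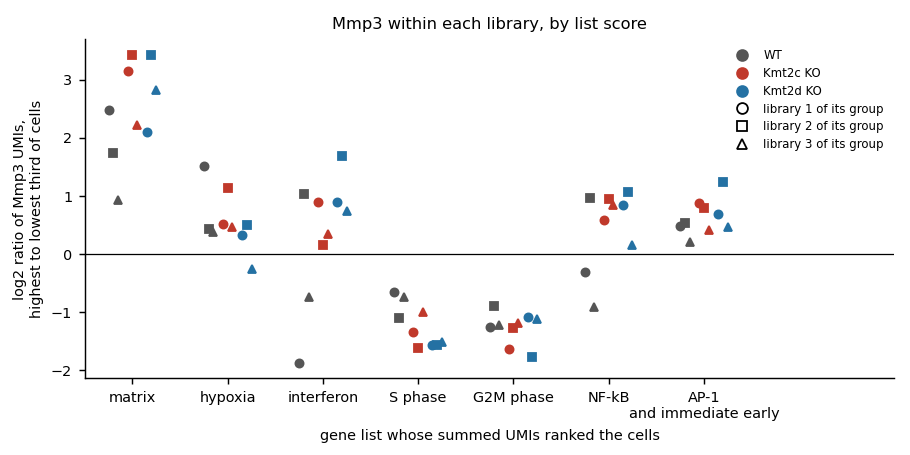
Log2 ratio of Mmp3 UMIs in the top tertile of H2BMc-positive cells by list score to that in the bottom one, per library (9 points per list, cells thinned to 3000 UMIs, 0.5 UMI added to each tertile). Matrix and AP-1 ratios lie above 0 and both cell cycle ratios below 0 in all 9 libraries, while 2 WT libraries lie below 0 for interferon and NF-kB.

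Across cells the single genes most like Mmp3 were given by the median over 9 libraries of Pearson's r of log counts, among 6179 genes. The 10 highest were Bgn (0.291), Spp1, Fth1, H2-D1, H2-K1, Cst3, Fn1, Itm2b, Lrp1 and Slpi (0.198), which include the matrix proteins biglycan, osteopontin and fibronectin and 2 class I histocompatibility genes. The 5 lowest were Hmga1 (-0.184), H2afz, S100a6, Lgals1 and Rpsa (-0.156). All were weak and rest on sparse counts of the same libraries, and no test was made of them. Across the 9 libraries, the 5 genes whose centred log2 levels lay nearest to those of Mmp3 among 8660 genes were Apod (root mean square difference 0.426), H2-Q6, H2-Q7, Eln and Gm8909 (0.539).

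Tumour cells that carried fibroblast markers held more Mmp3. Markers listed for fibroblasts were present in cells with the reporter: 2173 of the 16707 H2BMc-positive cells (13.0%) had 3 or more of 8, and Pdgfra, a growth factor receptor, was seen in 52.0%. After thinning, cells with 2 or more of these markers made up 12.4% to 18.5% of WT, 7.85% to 10.9% of Kmt2c KO and 7.75% to 20.0% of Kmt2d KO cells. An Mmp3 UMI was seen in 6.17%, 13.6% and 11.4% of such cells in WT, 44.1%, 55.5% and 47.5% in Kmt2c KO and 46.7%, 31.5% and 49.6% in Kmt2d KO. Cells with none of the markers had it in 4.40%, 7.64% and 4.27% in WT, 26.3%, 30.1% and 30.5% in Kmt2c KO and 17.8%, 18.8% and 18.6% in Kmt2d KO, so the share was lower without the markers in 9 of 9 libraries. The mean log2 ratio of Mmp3 levels was 1.45 ± 0.52 (SD, n = 9, exact sign-flip permutation test, p = 0.00391, the smallest possible), in a comparison chosen after the values were seen.

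The difference between genotypes was also measured within wide bins of score. The high interferon bin had no upper limit and took 64.8%, 65.0% and 75.3% of cells in Kmt2c KO. It took 12.6%, 52.9% and 12.6% in Kmt2d KO and 4.75%, 2.84% and 7.32% in WT. Scores within a bin were therefore not matched between genotypes. With 3 bins of interferon score common to all libraries, Mmp3 in the low bin averaged 0.0878 ± 0.0106 UMIs per cell for WT, 0.705 ± 0.490 for Kmt2c KO and 0.274 ± 0.142 for Kmt2d KO (n = 3 each, exact permutation test over 3 genotypes, adjusted p = 0.0375). The knockouts lay above WT in every library of that bin, and the call was lost when any 1 of 6 libraries was left out: each WT library, Kmt2c KO libraries 2 and 3 and Kmt2d KO library 2 (adjusted p up to 0.121). In the high bin the knockout libraries held 0.575 to 1.13 UMIs per cell, and the 21, 26 and 26 WT cells there held 0, 4 and 0 Mmp3 UMIs in all (exact permutation test, adjusted p = 0.0107). In the middle bin the means were 0.0790 for WT, 0.744 for Kmt2c KO and 0.527 for Kmt2d KO (adjusted p = 0.05, not below the threshold, exact permutation test). Within bins of matrix score, added after seeing the data, the knockouts lay above WT in every library of all 3 bins, and in the high bin the levels were 0.132 ± 0.028 for WT, 1.54 ± 0.43 for Kmt2c KO and 0.906 ± 0.157 for Kmt2d KO (exact permutation test, adjusted p = 0.00536).

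**Figure D4:**
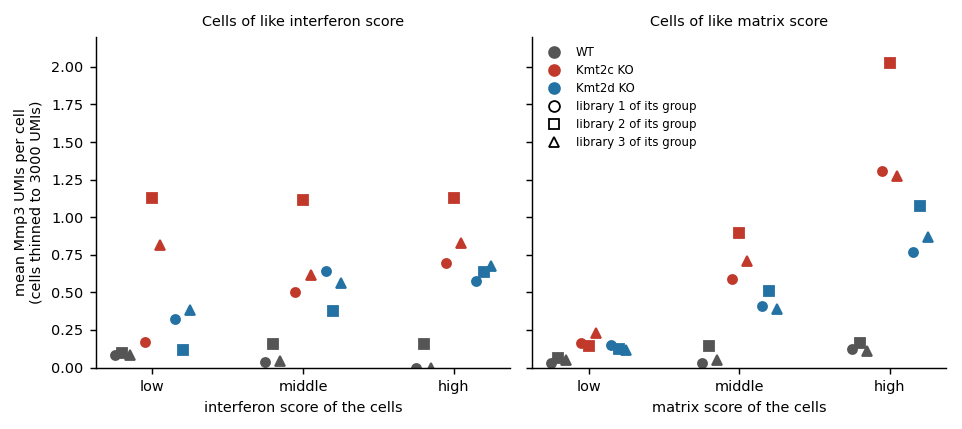
Mean Mmp3 UMIs per H2BMc-positive cell (thinned to 3000 UMIs) in low, middle and high bins of interferon score (left) and matrix score (right), with bins common to all libraries and 1 point per library. WT points stay at or below 0.162 in every bin, while knockout levels in the high matrix bin lie between 0.769 and 2.03.

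Much of the Mmp3 in these tumours lay outside the H2BMc-positive cells, which held 43.2% of the 86757 Mmp3 UMIs of kept cells. Another 39.3% were in 23095 cells with Krt8, no H2BMc and no other cell type gate, where the level was 28.6, 44.1 and 28.3 CPM in WT, 149, 251 and 222 CPM in Kmt2c KO and 102, 101 and 114 CPM in Kmt2d KO. These values lie near those of the H2BMc-positive cells of the same libraries and keep the same order of genotypes. A further 14.0% were in 16312 cells with neither marker and in no gate, which were shallow (median 2181.5 UMIs) and are not named here.

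Gated endothelial cells and macrophages held few Mmp3 UMIs. Gates asked for at least 3 of the markers of a type, fewer than 2 of other types, no H2BMc and no Krt8. The endothelial gate held 375 cells (median 4702 UMIs; Pecam1 in 93.9%) and 2 Mmp3 UMIs in all, 1 each in Kmt2c KO libraries 2 and 3. That is a share of 0.533% (exact binomial 95% interval 0.0647% to 1.91%), and the T or NK gate, cells that should not make the transcript, had 8 UMIs in 280 cells (share 2.5%, 1.01% to 5.08%; median 1350 UMIs). The macrophage gate held 686 cells (median 2316.5 UMIs; C1qa in 77.4%) and 33 Mmp3 UMIs in 13 cells (share 1.90%, 1.01% to 3.22%). The libraries differed: of these UMIs 8 were in Kmt2c KO library 2, where 2.98% of gated macrophages and 4.29% of gated T or NK cells had one, and 19 were in Kmt2c KO library 3, in 5 of 162 macrophages against 0 of 43 T or NK cells. For these 43 cells a floor of 3 cells allows a share with a UMI of up to 6.98%, and the exact binomial 95% upper limit is 8.22%. The T or NK gate took 7 of its 8 UMIs from Kmt2c KO library 2, so it gives no background level for the other libraries. Over all libraries the macrophage gate was at 16.4 CPM (exact Poisson 95% interval 11.3 to 23.0). That lay above the endothelial gate (0.866 CPM, 0.105 to 3.13) and overlapped the T or NK gate (17.1 CPM, 7.39 to 33.7). The gates draw on the genotypes in unlike shares, so whether macrophages expressed Mmp3 was not settled. In WT 0 of 144 gated macrophages and 0 of 150 gated endothelial cells had an Mmp3 UMI, and neither gate passed the genotype test (exact permutation tests, adjusted p = 0.25 for both). The macrophage gate did pass with at least 2 markers (69.3 and 19.3 CPM above WT in Kmt2c KO and Kmt2d KO, adjusted p = 0.00536) and with no limit on H2BMc and Krt8 (111 and 34.6 CPM, adjusted p = 0.0161, exact permutation tests). Without that limit the gate admits cells with tumour markers, and it held 310 Mmp3 UMIs in 805 cells. With at least 4 markers and the limit kept, it held 13 Mmp3 UMIs in 556 cells, 2 of them in Kmt2c KO library 3. Intervals cover counting error only.

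The fibroblast-marker gate did hold Mmp3, in cells that were not alike in their stromal markers. It took 1076 cells (median 6769.5 UMIs), with Mmp3 at 203, 81.4 and 67.3 CPM in WT, 676, 544 and 312 CPM in Kmt2c KO and 329, 259 and 314 CPM in Kmt2d KO. All knockout libraries were above WT, and the genotype test missed the threshold after adjustment over 3 gates (exact permutation test, p = 0.025, adjusted p = 0.075). Split after seeing the data, 163 of these cells had a UMI of Thy1, Col14a1 or Fap, markers near 0 in H2BMc-positive cells, and their Col1a1 was 10084 CPM. The other 913 cells had Col1a1 at 46.7 CPM, against 10.7 CPM in H2BMc-positive cells. Dpt, Pi16, Col3a1 and Dcn also lay far apart in the sets, at 444, 877, 11393 and 3511 CPM in the 163 cells and 133, 98.7, 228 and 118 CPM in the 913. Other markers of the gate were closer: Clec3b was at 1320 CPM in the 163 cells, 1166 CPM in the 913 and 130 CPM in H2BMc-positive cells, Pdgfra at 329, 266 and 76.6 CPM, and Lum at 679, 505 and 52.0 CPM, so the identity of the 913 cells could not be settled from these markers. Mmp3 was compared between the sets only in libraries with at least 20 cells of each. It was lower in the set of 163 than in the set of 913 in Kmt2d KO library 1 (200 against 358 CPM). Counting intervals overlapped in Kmt2c KO library 1 (622 against 682 CPM) and Kmt2d KO library 2 (248 against 262 CPM). The other libraries held too few cells of the smaller set. The genotypes take different shares of both sets, so no pooled level is compared. Of the 163 cells 31 came from WT tumours, with 49 Mmp3 UMIs in 7 cells, but 48 of these UMIs and 6 of these cells were in WT library 1. The other WT libraries had 0 UMIs in 4 cells and 1 UMI in 9 cells, and too few libraries had 20 such cells to compare genotypes.

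**Figure D5:**
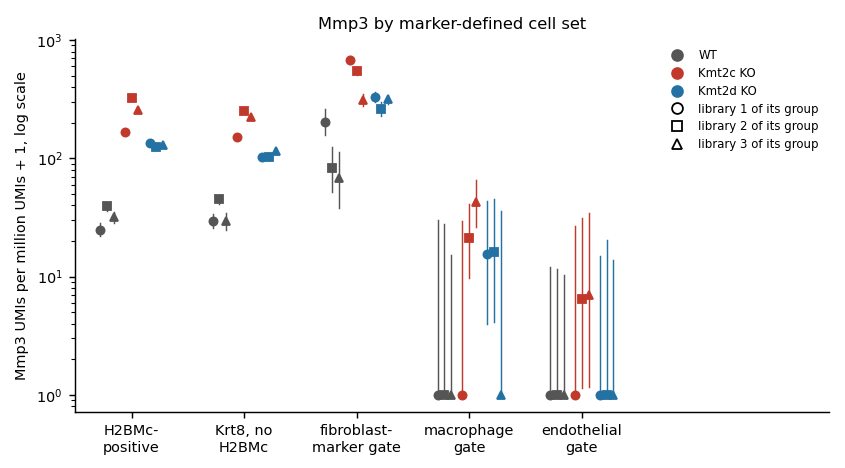
Mmp3 CPM plus 1 (log scale) per library in H2BMc-positive cells, Krt8-positive cells without H2BMc, and the fibroblast-marker, macrophage and endothelial gates; lines are exact Poisson 95% intervals of the counts. WT libraries lie at 23.9 to 38.2 CPM in H2BMc-positive cells and at 0 in the macrophage and endothelial gates.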

How the data were processed

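Single-cell RNA was counted in whole tumours, 3 each of WT, Kmt2c KO and Kmt2d KO. Per the labels and the submitters' processing notes, the deposited UMI counts were made by the authors with Cell Ranger 7.0.1 on mm10, pooled in 1 table and not normalized. Libraries carry a letter (C, D or X) and not the labelled sample, so they entered only as members of a genotype, with X taken as WT because it is the common group of the comparisons named by the study. Cells with 500 to 7500 genes and under 15% mitochondrial UMIs were kept, and no doublet caller was run. Counts of H2BMc-positive cells were summed per library and tested with edgeR 4.0.16 (quasi-likelihood, TMM, Benjamini-Hochberg adjustment over all genes tested, all 3 genotypes in 1 fit, R 4.3.3), with DESeq2 1.42.0 as an alternative. The edgeR step was tested on simulated data. Single values were compared over libraries with exact permutation tests (ranks and intervals by scipy 1.17.1), and a call is an adjusted p below 0.05. Tests over 3 genotypes permuted the Kruskal-Wallis rank statistic, which has no direction and does not test the printed means. Pair tests and sign-flip tests were two-sided and used means. Gated sets with under 20 cells in a library gave no value for it. Genes named are Mmp3, the targeted genes, genes drawn from list members that were called, had 1 of the 4 largest changes of their list or define it at 0, and the 5 genes across libraries and the 10 highest and 5 lowest across cells by likeness to Mmp3. The gene and its lists were chosen with earlier results of these data known. p-values measure the spread between tumours of 1 cell pool per genotype. Protein sequence was not used here. Alternatives changed the test, the filters, the cell definition, the thinning depth, the gates and the libraries.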

Additional observations from a re-analysis of the deposited data

Results flagged for a closer look

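The ratio of Mmp3 between H2BMc-positive cells with 2 or more fibroblast markers and those with none differed between genotypes, which drew attention because the difference itself was tested. The log2 ratio was 0.323, 1.11 and 1.23 in WT, 1.70, 1.75 and 1.29 in Kmt2c KO and 1.82, 1.78 and 2.01 in Kmt2d KO, and the exact permutation test over the 3 genotypes gave p = 0.00357 (0.0286 after adjustment over 8 such ratios). The 3 genotypes did not overlap. The comparison was chosen after seeing the data, and the WT ratios rest on 5 to 39 Mmp3 UMIs in the cells with markers. The part of these low counts in the difference was not tested.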

How the results depend on the processing

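Of 479 recomputed values, those not named here kept their direction and their side of the threshold. The cause of each change was not tested. No paired analysis was possible because the library names carry no replicate numbers of the labels.

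The rise of Mmp3 in both knockouts held in every alternative. Without each library in turn, its log2 fold change was 2.75 to 3.24 in Kmt2c KO and 1.85 to 2.21 in Kmt2d KO. The difference between the knockouts was called by DESeq2 (-0.985) and with no filter on low counts (-0.993), and ran from -1.22 to -0.72 with libraries left out, called without Kmt2c KO library 1 or Kmt2d KO library 2. Genes called between the knockouts numbered 565 by DESeq2, 521 with no filter, 121 with at least 2 H2BMc UMIs, 4 with a mitochondrial limit of 10%, and 0 in Krt8-positive cells, with only the 2 groups or without the 5% of cells with most UMIs. In Kmt2d KO against WT they numbered 682 by DESeq2, 516 with no filter, 209 with at least 2 H2BMc UMIs and 177 with only the 2 groups. Leaving out libraries gave 1256 to 4140, 98 to 823 and 0 to 2797 genes for Kmt2c KO and Kmt2d KO against WT and for the knockouts, each time with the highest count without Kmt2d KO library 2.

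With no thinning, the genotype tests of share and of level per positive cell missed the threshold, with differences of 29.7, 26.3 and -3.42 points and of 2.71, 1.18 and -1.53 UMIs (Kmt2c KO and Kmt2d KO against WT, then Kmt2d KO against Kmt2c KO). By interferon score the ratio of tertiles became 0.748 in Krt8-positive cells and 0.862 at 6000 UMIs, both called, and -0.0583 when ranked by the number of list genes seen, a setting added after seeing the data. It ran from 0.184 to 0.630 with libraries left out, called without WT library 1. The NF-kB ratio was 0.345 in Krt8-positive cells and 0.664 at 6000 UMIs, both called, and 0.391 to 0.638 with libraries left out, called without WT library 3.

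In the low interferon bin the differences from WT ran from 0.404 to 0.885 UMIs per cell in Kmt2c KO and from 0.130 to 0.266 in Kmt2d KO with libraries left out (added after seeing the data), with the call lost without any of the 6 libraries named above. In the middle bin they ran from 0.481 to 0.786 and from 0.391 to 0.522, and the test passed the threshold without Kmt2c KO library 1 or Kmt2d KO library 1 (exact permutation, adjusted p = 0.025 for both). The fibroblast-marker gate passed the threshold with at least 2 markers (differences of 389 and 183 CPM) and with no limit on H2BMc and Krt8 (450.0 and 217 CPM), and ran from 311 to 493 and from 159 to 227 CPM with libraries left out, passing without Kmt2c KO library 3 (493 and 184 CPM, exact permutation, adjusted p = 0.0321). The macrophage gate passed with at least 2 markers (69.3 and 19.3 CPM) and with no limit on H2BMc and Krt8 (111 and 34.6 CPM). Gates without that limit admit cells with tumour markers, and the fibroblast-marker gate then took 5557 cells in place of 1076. Passes of either gate without the limit therefore do not test reporter-negative cells. Cells left out for carrying 3 or more markers of a non-fibroblast type, also added later, changed no call of Mmp3. Tertiles and bins of WT cells hold few Mmp3 UMIs, since these libraries have 361 to 925 H2BMc-positive cells and a low Mmp3 level.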
